A study of Mus musculus with 16 samples.

Results

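Sprr1a, Ivl, Lor, Sbsn, Trim29 and Mal were grouped here as squamous and cornified envelope genes, and they were read in organoids of the intestine. These 6 genes, of the 19964 genes present in both deposited count tables, were picked by name with the 4OHT over DMSO changes of the same libraries known. Their differences between 4OHT and DMSO organoids are therefore a description and carry no test. Their changes between the days, which the choice did not use, were tested.

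The RNA came from organoids of mouse jejunal epithelium (C57BL/6 background), and the genotype in every group was Villin-CreERT2; Hnf4a flox/flox. CreERT2 is a recombinase that acts once tamoxifen binds it, the Villin promoter restricts it to intestinal epithelium, and flox marks alleles of Hnf4a that it can delete. Hnf4a encodes a nuclear receptor that activates many genes of the gut epithelium. The groups, with 4 libraries each, were 4OHT at day 2, DMSO at day 2, 4OHT at day 4 and DMSO at day 4: 4OHT organoids were given hydroxytamoxifen at 0.5 µM over 24 h before a split, and DMSO organoids had the solvent. No group had 4OHT without the floxed alleles, so loss of Hnf4a and any other action of 4OHT or of the recombinase cannot be told apart. Nor can day and any sequencing batch that ran with it, since the labels name no batch. The labels describe the harvest of day 4 only and do not say whether replicates were separate cultures or animals, so p-values here speak only of library-to-library spread, which could be technical.

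The libraries held 63.8 to 93.3 M counts (1 M is 1000000). Hnf4a itself averaged 509 ± 22.2 CPM in 4OHT organoids and 1018 ± 30.7 CPM in DMSO organoids at day 2, and 471 ± 16.1 CPM in 4OHT organoids and 970 ± 6.95 CPM in DMSO organoids at day 4 (SD, n = 4 each). CPM are counts scaled to a library total of 1000000, with scaling factors set over all 16 libraries. The 4OHT level was thus 50.3% of DMSO at day 2 and 48.6% at day 4 (edgeR quasi-likelihood test, adjusted p = 8.25e-08 and 1.14e-06). Which exons are deleted is not given in the sources used here, so reads outside them may remain in this count.

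Keratinocytes at the surface of skin, mouth, oesophagus and, in mice, the forestomach replace their plasma membrane with a cornified envelope, a shell of proteins that transglutaminases cross-link and to which lipids are bound. Involucrin, envoplakin and periplakin are laid down early, and loricrin and the small proline-rich proteins reinforce the shell later. The jejunum is lined by a single layer of columnar cells and builds no such envelope. Sprr1a encodes a small proline-rich protein, Ivl involucrin and Lor loricrin. Sbsn encodes suprabasin, a secreted protein of the suprabasal layers of the epidermis. Trim29 encodes a tripartite motif protein that is abundant in squamous epithelia. Mal encodes a membrane protein of the MARVEL family that takes part in apical transport in epithelial cells and is also found in myelin and T cells.

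Sprr1a, Ivl and Lor lie in the epidermal differentiation complex of chromosome 3, a cluster of envelope genes (GRCm38, GENCODE M21). Sprr1a (ENSMUSG00000050359) covers chr3:92483952-92485895, Ivl (ENSMUSG00000049128) chr3:92570902-92573735 and Lor (ENSMUSG00000043165) chr3:92080271-92083142, each on the minus strand and with 2 exons. Ivl and Sprr1a are 85.0 kb apart. Sbsn (ENSMUSG00000046056) covers chr7:30751471-30756134 on the plus strand, Trim29 (ENSMUSG00000032013) chr9:43310848-43336115 on the plus strand and Mal (ENSMUSG00000027375) chr2:127633226-127656695 on the minus strand. Sbsn shares 279 exonic bases with the noncoding gene Tmem147os on the same strand, so its count may be split or shared there.

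The upstream sequences are printed because 4 of the 6 genes share a short motif in them. RefSeq promoters (GRCm38.p6) were on hand for 5 genes and not for Trim29. Each line runs 5′ to 3′ over 230 bases, from 250 to 21 bases before the RefSeq start site. The capitals mark TGANTCA, where N is any base. AP-1 factors (Fos and Jun family dimers) are known to bind TGAGTCA and TGACTCA, and TGANTCA is a wider pattern that holds both. The windows are chr3:92485902-92486131 (minus strand) for Sprr1a, chr3:92573756-92573985 (minus) for Ivl, chr3:92083163-92083392 (minus) for Lor, chr7:30751221-30751450 (plus) for Sbsn and chr2:127656716-127656945 (minus) for Mal.
Sprr1a: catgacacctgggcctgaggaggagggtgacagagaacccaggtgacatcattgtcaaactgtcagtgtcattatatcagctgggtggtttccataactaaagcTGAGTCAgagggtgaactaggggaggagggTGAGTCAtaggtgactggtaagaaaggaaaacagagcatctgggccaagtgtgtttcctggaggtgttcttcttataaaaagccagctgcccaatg
Ivl: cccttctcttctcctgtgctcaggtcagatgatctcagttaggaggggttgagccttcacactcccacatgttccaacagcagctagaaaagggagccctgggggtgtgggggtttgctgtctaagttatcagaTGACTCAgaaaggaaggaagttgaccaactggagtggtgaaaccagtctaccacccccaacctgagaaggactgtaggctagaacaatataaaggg
Lor: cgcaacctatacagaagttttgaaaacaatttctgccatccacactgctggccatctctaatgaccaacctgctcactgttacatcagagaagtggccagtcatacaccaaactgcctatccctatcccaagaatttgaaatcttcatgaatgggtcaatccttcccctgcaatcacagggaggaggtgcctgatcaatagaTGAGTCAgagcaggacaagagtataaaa
Sbsn: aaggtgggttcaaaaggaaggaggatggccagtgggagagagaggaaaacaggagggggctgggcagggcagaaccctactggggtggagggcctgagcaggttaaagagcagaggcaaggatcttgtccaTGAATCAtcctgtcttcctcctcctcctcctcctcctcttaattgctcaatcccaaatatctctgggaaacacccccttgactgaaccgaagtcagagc
Mal: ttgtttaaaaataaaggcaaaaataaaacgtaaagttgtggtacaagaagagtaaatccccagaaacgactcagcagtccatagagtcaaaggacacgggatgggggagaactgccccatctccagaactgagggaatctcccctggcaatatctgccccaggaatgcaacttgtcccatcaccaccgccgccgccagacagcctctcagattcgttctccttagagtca

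TGANTCA stood in 4 of these 5 windows, against 6.34% of all 32851 mouse promoter windows of the same length. Of 47 other envelope genes, 38.3% had it, counted by gene and not by window. Sprr1a, Ivl and Lor matched by TGAGTCA or TGACTCA, and Sbsn only by TGAATCA. The matches began 146 and 116 bases before the start site in Sprr1a, 116 in Ivl, 119 in Sbsn and 48 in Lor. Mal had none. TATAAA, the core of a TATA box, began 43 bases upstream in Sprr1a, 29 in Ivl and 27 in Lor. It was thus in 3 of 5 windows, against 11.8% of all windows and, counted by gene, 42.6% of the other envelope genes. In the Mal window, CATTCC (the TEAD letters, on the other strand) lay 89 bases upstream. CAAAGNNCA, letters like those of an HNF4 site, lay 163 bases upstream. Of all windows 11.8% and 5.07% hold them, and of the 47 other envelope genes 9 and 0 do, counted by gene. All 4 motifs were searched on both strands, were chosen with these sequences in view, and did not overlap one another. A match is a run of letters and not a measured site, and a missing match says only that the letters are not in that window.

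**Figure D1:**
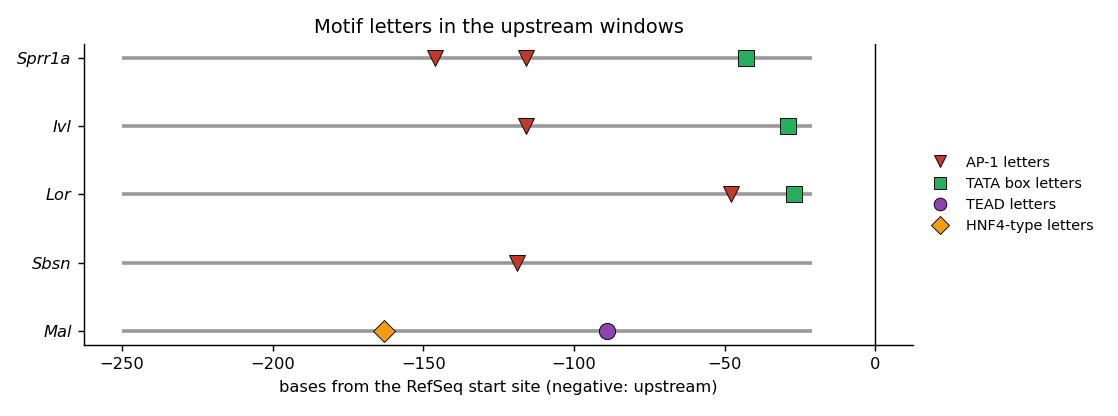
Position of motif letters upstream of 5 of the genes. The x axis gives bases from the RefSeq start site, grey bars are the 230-base windows, and symbols mark where each motif begins. AP-1 letters here are any TGANTCA, and the match in Sbsn is TGAATCA. They lie 116 to 119 bases upstream in Sprr1a, Ivl and Sbsn, a second time at 146 in Sprr1a, and 48 bases upstream in Lor, and Mal has none.

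All 6 genes were higher in 4OHT organoids than in DMSO organoids at both days, and in each case the lowest 4OHT library was above the highest DMSO library. At day 2, 16.6% of the 15897 genes tested were higher without overlap, and at day 4, 14.6% of 16040. Since the genes were chosen for this rise, the counts are read no further. In bulk RNA, a change in the number of cells of a type and a change in RNA per cell cannot be told apart.

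Sprr1a had the highest CPM of the 6 genes in every group. At day 2 it had 129, 122, 153 and 137 CPM in the 4OHT libraries, against 34.6, 33.8, 31.1 and 33.5 CPM in the DMSO libraries. At day 4 it had 17.7, 11.5, 19.6 and 41.2 CPM in 4OHT libraries, against 5.95, 4.52, 6.39 and 6.40 CPM in DMSO libraries. The day 2 groups were each tight, whereas the fourth 4OHT library of day 4 stood well above its 3 partners. The log2 fold change, 4OHT over DMSO, was 2.04 ± 0.07 (SE) at day 2 and 1.96 ± 0.36 at day 4, or about 4.10-fold and 3.89-fold.

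Ivl, whose product is the early scaffold of the envelope, was near the limit of detection in DMSO organoids of day 4. At day 2 it had 8.71, 10.8, 12.5 and 9.57 CPM in 4OHT libraries, against 1.18, 1.24, 1.26 and 1.33 CPM in DMSO libraries. At day 4 it had 2.02, 1.52, 2.77 and 4.46 CPM in 4OHT libraries, against 0.130, 0.148, 0.0610 and 0.107 CPM in DMSO libraries. Those last 4 values rest on 12, 14, 4 and 7 counts. The log2 fold change was 3.06 ± 0.12 at day 2 and 4.53 ± 0.41 at day 4.

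Lor, the main protein of the mature envelope in epidermis, was the most even of the 6 genes among 4OHT libraries of day 2. It had 13.05, 13.2, 13.96 and 14.5 CPM in those libraries, against 3.201, 3.69, 2.38 and 2.97 CPM in DMSO libraries. At day 4 it had 1.68, 1.30, 1.82 and 1.47 CPM in 4OHT libraries, against 0.346, 0.243, 0.259 and 0.765 CPM in DMSO libraries. At day 4 the spread lay in the DMSO group, where replicate 4 stood well above the other 3 libraries, at 50 counts against 32, 23 and 17. The log2 fold change was 2.17 ± 0.11 at day 2 and 1.99 ± 0.31 at day 4, and 2.45 at day 4 without that DMSO library.

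Sbsn differed least between the treatments at day 4. At day 2 it had 10.6, 10.6, 12.1 and 12.01 CPM in 4OHT libraries, against 3.07, 2.84, 2.38 and 3.02 CPM in DMSO libraries. At day 4 the 4OHT libraries had 2.69, 2.51, 3.57 and 3.26 CPM and the DMSO libraries 1.69, 1.84, 2.10 and 1.61 CPM. The log2 fold change was 2.01 ± 0.09 at day 2 and 0.73 ± 0.15 at day 4, or about 4.03-fold and 1.66-fold.

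Trim29, which is not known as a structural protein of the envelope, was the most uneven of the 6 genes in 4OHT organoids of day 4. At day 2 it had 18.6, 19.1, 22.3 and 20.3 CPM in 4OHT libraries, against 2.57, 2.44, 2.12 and 2.68 CPM in DMSO libraries. At day 4 it had 11.1, 6.69, 12.01 and 26.5 CPM in 4OHT libraries, against 1.09, 0.826, 1.46 and 1.67 CPM in DMSO libraries. The fourth 4OHT library of day 4 exceeded every 4OHT library of day 2, and the second was the lowest 4OHT library of both days. The log2 fold change was 3.04 ± 0.09 at day 2 and 3.51 ± 0.44 at day 4.

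Mal had the largest fold of the 6 at day 2. It had 35.6, 35.1, 44.4 and 40.6 CPM in 4OHT libraries, against 4.08, 3.28, 3.32 and 3.69 CPM in DMSO libraries, a log2 fold change of 3.45 ± 0.10. At day 4 it had 5.04, 3.39, 6.50 and 8.29 CPM in 4OHT libraries, against 0.357, 0.254, 0.244 and 0.551 CPM in DMSO libraries, a log2 fold change of 4.06 ± 0.33. Its DMSO values of day 4 rest on 33, 24, 16 and 36 counts. Mal stood at rank 11 of 15897 genes by fold at day 2 and at rank 23 of 16040 at day 4.

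**Figure D2:**
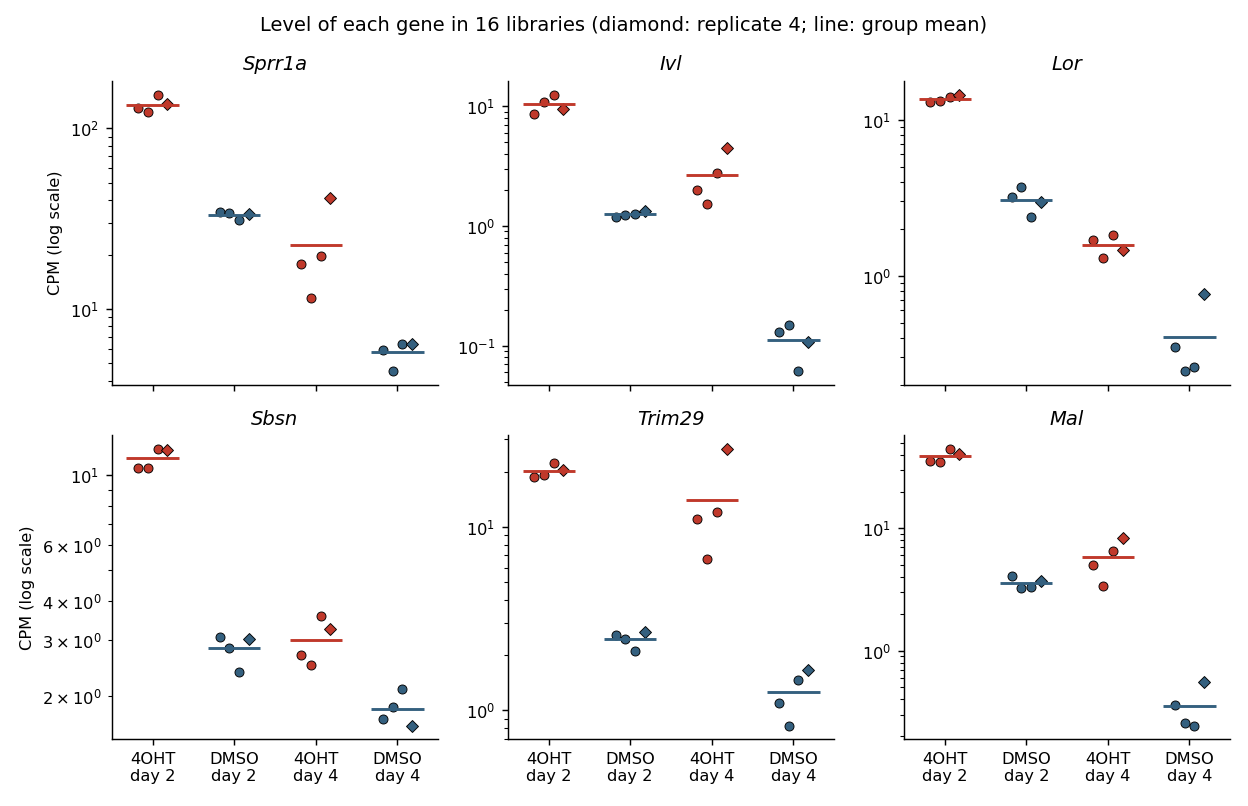
CPM of each gene in the 16 libraries, on log axes that differ between panels. Points are libraries, the diamond is replicate 4 and the line is the group mean; within each day the 4OHT libraries lie above the DMSO libraries for all 6 genes, and within each treatment most genes lie lower at day 4 than at day 2.

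Set against each other, the treatment folds of the 2 days lay farthest apart in Sbsn and Ivl, in opposite directions. The day 4 log2 fold change minus the day 2 one was -1.27 ± 0.17 for Sbsn and 1.47 ± 0.47 for Ivl (SE). It was 0.63 ± 0.38 for Mal, 0.48 ± 0.48 for Trim29, -0.16 ± 0.32 for Lor and -0.07 ± 0.39 for Sprr1a. These differences come from the contrasts that chose the genes and were not tested.

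Per kilobase of exon, which allows levels of different genes to be compared, Sprr1a led in every group. In 4OHT organoids of day 2 the order was Sprr1a at 168 ± 16.4 CPM per kb, Mal at 14.01 ± 1.59, Lor at 7.68 ± 0.376, Trim29 at 5.78 ± 0.473, Ivl at 5.41 ± 0.853 and Sbsn at 3.12 ± 0.237 (SD, n = 4). Only Trim29 and Ivl overlapped there. In DMSO organoids of day 2, Sprr1a had 41.2 ± 1.88 CPM per kb and the other 5 genes lay between Ivl at 0.653 ± 0.0325 and Lor at 1.72 ± 0.307, with Lor and Mal overlapping and Sbsn, Trim29 and Ivl overlapping.

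At day 4 the order below Sprr1a was another one. In 4OHT organoids Sprr1a had 27.9 ± 16.05 CPM per kb, followed by Trim29 at 4.05 ± 2.48, Mal at 2.09 ± 0.751, Ivl at 1.40 ± 0.670, Lor at 0.881 ± 0.130 and Sbsn at 0.8294 ± 0.137. Each neighbouring pair below Sprr1a overlapped. In DMSO organoids Sprr1a had 7.21 ± 1.10 CPM per kb and Sbsn, last among 4OHT organoids, came second at 0.499 ± 0.0606. Ivl was last at 0.0580 ± 0.0196 CPM per kb and did not overlap its nearest neighbour Mal.

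From day 2 to day 4 the genes fell in both treatments. In 4OHT organoids 5 of the 6 fell and in DMSO organoids all 6 fell (edgeR quasi-likelihood test, adjusted p below 0.05 over all genes tested). Over all genes, 23.5% of 15962 fell in 4OHT organoids and 24.8% of 16088 in DMSO organoids, while 25.9% and 28.7% rose. A fall of at least 2-fold was seen in 2.71% and 3.26% of all genes, and in 5 of the 6 in 4OHT organoids and 4 of the 6 in DMSO organoids. Each test shares its libraries with the contrasts used to choose the genes.

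In 4OHT organoids Lor fell the most, to 11.4% of its day 2 level, a log2 change of -3.13 ± 0.11 (adjusted p = 1.05e-07). Mal changed by -2.75 ± 0.23 (adjusted p = 2.66e-05) and Sprr1a by -2.59 ± 0.35 (adjusted p = 0.000483). Ivl changed by -1.95 ± 0.28 (adjusted p = 0.000484) and Sbsn by -1.92 ± 0.12 (adjusted p = 1.29e-06). For these 5 genes every day 4 library was below every day 2 library, against 22.2% of all genes. Trim29 did not pass: its log2 change was -0.52 ± 0.36 (adjusted p = 0.265) and the days overlapped. That result turned on 1 library: without replicate 4 of 4OHT day 4 the log2 change of Trim29 was -1.02 (adjusted p = 0.00135).

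In DMSO organoids Ivl and Mal fell the most, to 9.38% and 9.71% of their day 2 levels, log2 changes of -3.41 ± 0.20 and -3.36 ± 0.19 (adjusted p = 4.00e-08 and 3.33e-08). Lor changed by -2.96 ± 0.28 (adjusted p = 3.93e-06) and Sprr1a by -2.52 ± 0.09 (adjusted p = 1.74e-09). Trim29 and Sbsn fell least, by 0.98 ± 0.18 and 0.64 ± 0.12 on the log2 scale (adjusted p = 0.000556 and 0.000842). All 6 genes were lower at day 4 without overlap, against 23.5% of all genes. For comparison, Hnf4a changed by -0.11 in 4OHT organoids (adjusted p = 0.0917) and by -0.06 in DMSO organoids (adjusted p = 0.312).

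**Figure D3:**
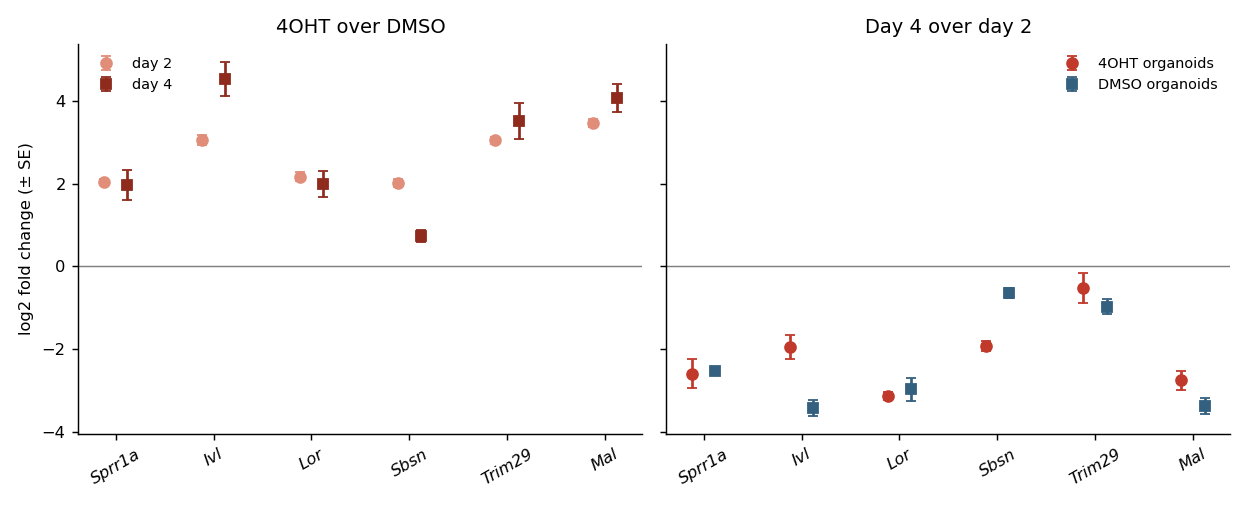
Log2 fold changes of the 6 genes with their SE, 4OHT over DMSO at each day (left) and day 4 over day 2 in each treatment (right). Sbsn has the smallest day 4 treatment fold, 0.73, and the fall of Trim29 in 4OHT organoids, -0.52, is the one time change that did not pass the test.

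The day 4 values rest on libraries of unequal level. In the 4OHT group, replicate 4 lay above the group's mean log2 CPM by 1.10 for Trim29, 1.03 for Sprr1a, 0.85 for Ivl and 0.59 for Mal, but by 0.13 for Sbsn and by -0.08 for Lor. Replicate 2 was the lowest of its group for all 6 genes, by -0.89 for Trim29, -0.81 for Sprr1a, -0.71 for Ivl and -0.70 for Mal. The genes thus moved together by library for 4 of the 6, and Lor and Sbsn held closer to their means. Summed, the 6 genes made 26.9 to 85.2 CPM in 4OHT organoids and 7.83 to 11.1 CPM in DMSO organoids at day 4, against 211 to 258 CPM and 42.5 to 48.7 CPM in the same groups at day 2.

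Without replicate 4 of the 4OHT group the day 4 log2 fold changes were 1.49 for Sprr1a, 4.17 for Ivl, 3.01 for Trim29 and 3.84 for Mal, and 2.03 for Lor and 0.70 for Sbsn. All thus stayed positive. This fit kept DMSO replicate 4, which deviated from its group mean log2 CPM by 1.09 for Lor, 0.73 for Mal and 0.45 for Trim29. For Sprr1a, Ivl and Sbsn its deviations were 0.15, 0.02 and -0.16. Replicate 4 of the 4OHT group also had the highest sum of immune and endothelial markers, mostly from Cd68. The sum was 6.16 CPM, against 3.60 to 3.82 CPM in the other 3 libraries of the group. Over all 16 libraries Cd68 held 4069 counts, and the other markers of that list with a row held 32 to 588. The part of these markers in the result was not tested.

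**Figure D4:**
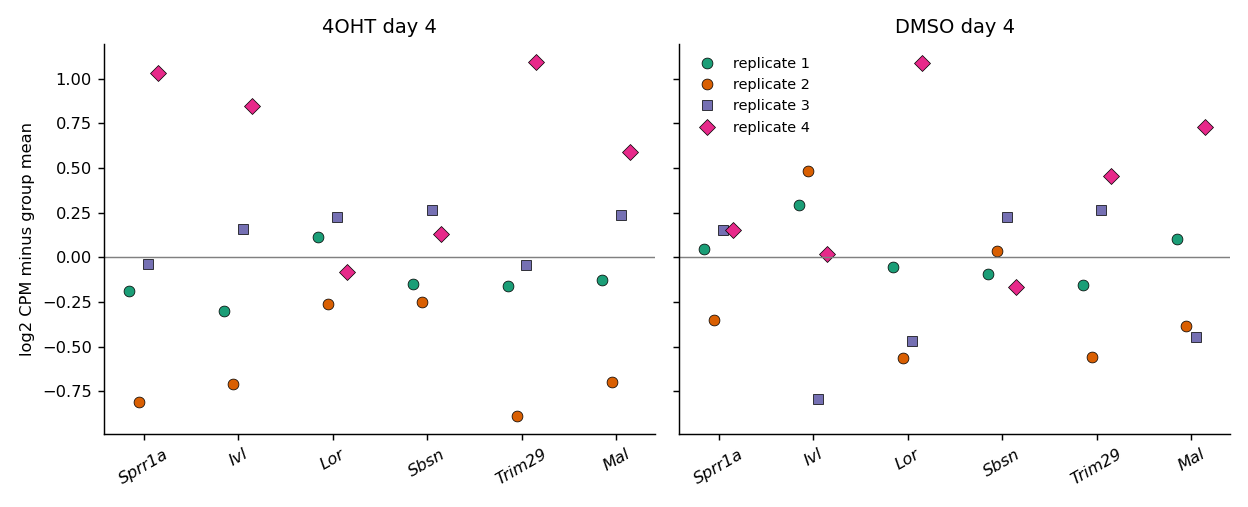
Log2 CPM of each day 4 library minus the mean of its group, for 4OHT (left) and DMSO (right) organoids. In the 4OHT group replicate 4 is the highest library for Sprr1a, Ivl, Trim29 and Mal, at 0.59 to 1.10 above the mean, and replicate 2 is the lowest for all 6 genes.

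The wider envelope pathway was read from 8 lists of named genes, which were chosen with earlier results of these data known. Counts over the lists are therefore a description and not independent support. Of their 167 genes, 101 could be tested at day 2, where 53 rose and 10 fell, and 91 at day 4, where 43 rose and 4 fell (edgeR, adjusted p below 0.05). Over all genes tested, 16.9% rose and 14.3% fell at day 2, and 13.7% rose and 11.1% fell at day 4. These shares are the background for each list below, except for counts given under other settings, and several counts of falls at day 2 lie near them. The median log2 fold change of the listed genes was 0.32 at both days, against -0.003 and -0.007 for all genes. With replicate number as a block, used because same-numbered day 4 libraries deviated together, 59 listed genes rose and 9 fell at day 4. That fit called 7216 genes at day 4, against 3967 without the block, so the day 4 shares above are no background for its counts. Its shares of all genes that rose and fell are not given here.

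Of 56 other envelope proteins, 17 had a row in the day 2 table and 13 were tested, and all 13 rose, with a median log2 fold change of 0.92. At day 4, 12 were tested and 6 rose, or 11 with the replicate block and 10 without replicate 2 of the 4OHT group or in a fit over all 16 libraries, with a median of 0.83. The late cornified envelope genes, which are added to the envelope in skin, and filaggrin had no row in either deposited table. They could not be tested, and both tables leave out genes summing to under 10 counts. Ppl, which encodes periplakin, had 169 ± 9.92 CPM in 4OHT organoids and 98.4 ± 11.2 CPM in DMSO organoids at day 2, a log2 fold change of 0.79 (adjusted p = 1.21e-05), and 0.86 at day 4 (adjusted p = 0.000132). Evpl, for its partner envoplakin, changed by 0.92 at day 2 (adjusted p = 4.68e-07) and 0.43 at day 4 (adjusted p = 0.00465).

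Dmkn, for the secreted protein dermokine, lies 7.62 kb from Sbsn and rose at both days. It had 5.88 ± 0.315 CPM in 4OHT organoids and 0.765 ± 0.137 CPM in DMSO organoids at day 2 (log2 fold change 2.95, adjusted p = 1.56e-08), and 5.59 ± 2.77 CPM and 0.572 ± 0.133 CPM in the same groups at day 4 (3.31, adjusted p = 0.000163). Between the days Dmkn differed from Sbsn: its day 4 over day 2 change in 4OHT organoids was -0.08 (adjusted p = 0.834), where Sbsn changed by -1.92; the difference between the 2 genes was not tested. Crnn, for cornulin, had 1.36 to 2.06 CPM in 4OHT libraries and 0.129 to 0.204 CPM in DMSO libraries at day 2, and 0.160 to 1.07 CPM in 4OHT libraries against 0 to 0.0306 CPM in DMSO libraries at day 4. Sprr2a3, the most abundant Sprr2 gene, had 93.2 ± 14.2 CPM in 4OHT organoids and 65.9 ± 1.90 CPM in DMSO organoids at day 2 (0.51, adjusted p = 0.000835, and adjusted p = 0.232 in a fit over all 16 libraries), but it is nearly identical to Sprr2a1 and Sprr2a2 and its count is uncertain.

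The enzymes that cross-link and process the envelope were mixed. At day 2, 5 of 12 tested rose and 2 fell, or 1 fell without replicate 1 of DMSO, and 3 rose under a minimum of 1 CPM. At day 4, 3 of 10 rose and 1 fell; 7 rose with the replicate block, 5 without replicate 2 of 4OHT or in a fit over all 16 libraries, and 1 under the CPM minimum. Tgm5, a transglutaminase of the epidermis, had 1.05 ± 0.0406 CPM in 4OHT organoids and 0.205 ± 0.0628 CPM in DMSO organoids at day 2 (log2 fold change 2.37, adjusted p = 2.33e-06) and changed by 2.55 at day 4 (adjusted p = 4.33e-05). Tgm1, the keratinocyte transglutaminase, changed by 2.00 at day 2 (adjusted p = 0.000726). Tgm2, the widely expressed tissue transglutaminase, went the other way: 129 ± 2.82 CPM in 4OHT organoids and 153 ± 4.53 CPM in DMSO organoids at day 2, a log2 fold change of -0.24 (adjusted p = 0.00075), and -0.25 at day 4 (adjusted p = 0.00385). Ctsl, for the protease cathepsin L, rose by 0.76 (adjusted p = 3.69e-06) and 0.99 (adjusted p = 0.00407).

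Among barrier lipid enzymes, 8 of 16 rose and 2 fell at day 2, and 9 of 16 rose and 1 fell at day 4. The day 4 fall was not called without replicate 1, 2 or 3 of DMSO, without replicate 1 of 4OHT or in the fit over all 16 libraries, which called 1 fall at day 2. Cers3, which makes the ceramides with very long chains of the skin barrier, had 1.88 ± 0.326 CPM in 4OHT organoids and 0.375 ± 0.0484 CPM in DMSO organoids at day 2 (log2 fold change 2.34, adjusted p = 9.85e-07), and changed by 2.66 at day 4 (adjusted p = 0.00112). Asah1, a lysosomal ceramidase found in most tissues, changed by 0.39 at day 2 (adjusted p = 1.44e-05) and 0.43 at day 4 (adjusted p = 0.0102). Medians over the list were 0.21 and 0.31.

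The transcription factors of squamous differentiation split. At day 2, 6 of 17 rose and 3 fell, a count of falls that was 1 without replicate 3 of 4OHT and 5 without replicate 4 of DMSO. At day 4, 6 rose and 1 fell, or 3 fell with the replicate block. The single fall was not called without replicate 1, 3 or 4 of 4OHT, without replicate 1, 2 or 3 of DMSO, in the fit over all 16 libraries or under the CPM minimum. At day 4, 3 rose without replicate 4 of DMSO or without replicate 1 of 4OHT. Grhl3 and Grhl1, grainyhead factors of barrier formation, changed by 1.04 and 1.248 at day 2 (adjusted p = 0.000169 and 4.44e-06) and by 1.59 and 0.71 at day 4 (adjusted p = 0.0013 and 0.00585). Zfp750, a factor of late keratinocyte differentiation, changed by 0.98 and 1.96 (adjusted p = 0.000348 and 0.000333). Hopx, a homeodomain protein of several epithelia, was 80.2 ± 4.51 CPM in 4OHT organoids and 92.9 ± 7.12 CPM in DMSO organoids at day 2; its call (adjusted p = 0.0223) was lost without any of 4 libraries, 4OHT replicate 1, 2 or 3 or DMSO replicate 2. Trp63, the master factor of squamous basal cells, averaged 0.0844 CPM in 4OHT organoids and 0.0325 CPM in DMSO organoids at day 2, and was too low to test.

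AP-1 subunits, whose binding letters stand upstream of Sprr1a, Ivl and Lor and in a wider form upstream of Sbsn, did not move as 1 group. At day 2, 4 of 8 rose and 1 fell, or 2 fell without replicate 4 of 4OHT. At day 4, 3 rose, or 5 rose and 1 fell with the replicate block, and 1 fell without replicate 1 of 4OHT. Fosl1, also called Fra-1, had 7.02 ± 1.01 CPM in 4OHT organoids and 3.25 ± 0.610 CPM in DMSO organoids at day 2 (log2 fold change 1.12, adjusted p = 8.66e-05), and 1.75 ± 0.594 CPM and 0.416 ± 0.0977 CPM in the same groups at day 4 (2.08, adjusted p = 0.000507). Fosl1 was lower at day 4 than at day 2, by a log2 change of -2.01 in 4OHT organoids (adjusted p = 4.29e-05) and -2.98 in DMSO organoids (adjusted p = 6.48e-08). Junb changed by 0.47 and 0.55 (adjusted p = 2.02e-05 and 0.00669) and Fos by 0.67 and 0.91 (adjusted p = 0.000442 and 0.00221). Jun, named after its values were seen as the 1 subunit that fell, fell by 0.49 on the log2 scale at day 2 (adjusted p = 0.000495).

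Stratified keratins, and S100 calcium-binding genes, many of which lie in the same cluster of chromosome 3 as the envelope genes, were read next. Of 10 keratins tested at day 2, 6 rose; of 5 at day 4, 3 rose and 1 fell, and 6 rose with no filter on low counts or 5 in the fit over all 16 libraries. Krt4, a keratin of moist stratified epithelia such as the oesophagus, had 227 ± 40.4 CPM in 4OHT organoids and 42.4 ± 5.17 CPM in DMSO organoids at day 2 (log2 fold change 2.44, adjusted p = 8.46e-08). At day 4 Krt4 had 44.0 ± 18.3 CPM in 4OHT organoids and 4.65 ± 2.24 CPM in DMSO organoids (3.25, adjusted p = 0.000461). Krt15, a basal keratin, fell at day 4, with 1.18 ± 0.255 CPM in 4OHT organoids and 2.25 ± 0.244 CPM in DMSO organoids (-0.94, adjusted p = 0.0027). Of the S100 genes, 8 of 11 rose at day 2 and 8 of 9 at day 4. S100a6 had 974 ± 39.3 CPM in 4OHT organoids and 602 ± 31.8 CPM in DMSO organoids at day 2 (0.71, adjusted p = 1.49e-06) and 296 ± 96.3 CPM and 91.9 ± 19.8 CPM in the same groups at day 4 (1.69, adjusted p = 0.000962).

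The relatives of Mal were called at day 2 about as often as genes in general. Of 14 other MARVEL family genes, 3 rose and 2 fell at day 2, where 16.9% of all genes rose and 14.3% fell, and 5 rose at day 4, where 13.7% of all genes did, with 2 falling under the replicate block and 1 in a fit over all 16 libraries or by DESeq2; the medians were 0.03 and 0.04. Pllp, for plasmolipin, changed by 0.46 and 0.63 (adjusted p = 7.35e-05 and 0.000575). Cmtm8 had 0.567 ± 0.131 CPM in 4OHT organoids and 0.234 ± 0.0703 CPM in DMSO organoids at day 2 (1.27, adjusted p = 0.00204) and changed by 2.06 at day 4 (adjusted p = 0.000153). Mall, the nearest relative of Mal in name and 47.7 kb from it, had 174 ± 15.4 CPM in 4OHT organoids and 170 ± 10.4 CPM in DMSO organoids at day 2 (0.04, adjusted p = 0.676) and changed by 0.32 at day 4 (adjusted p = 0.00379).

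**Figure D5:**
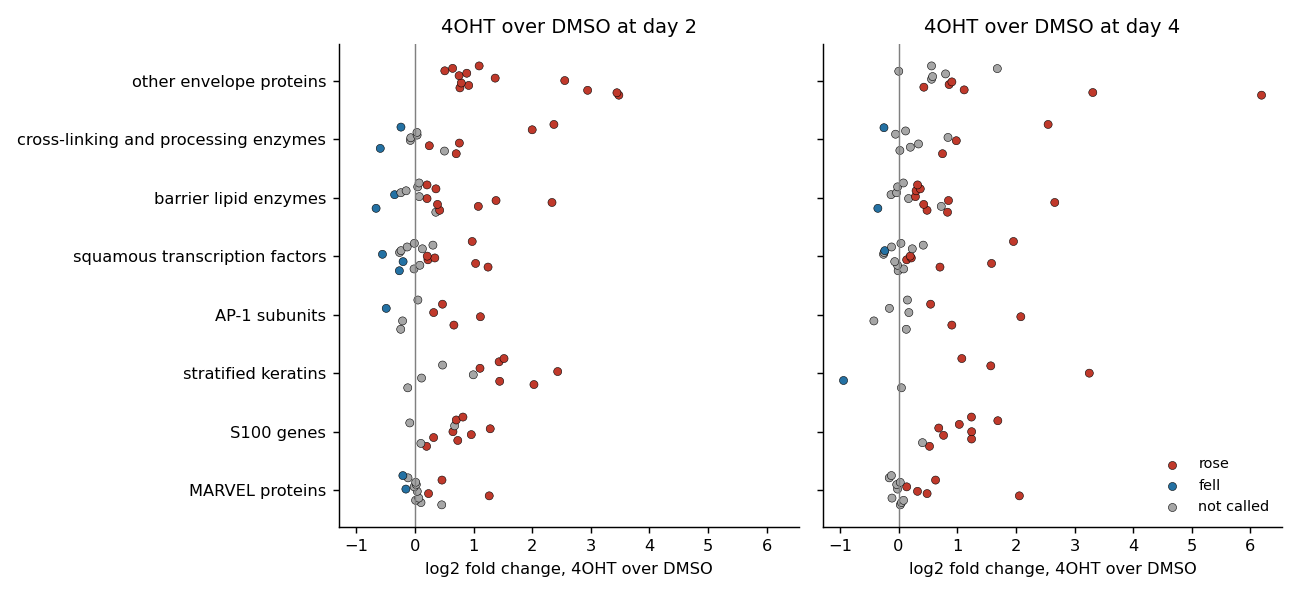
Log2 fold change, 4OHT over DMSO, of each tested gene of the 8 lists at day 2 (left) and day 4 (right); red and blue mark genes that rose or fell and grey those that did not pass the test. All 13 envelope proteins tested at day 2 are red, and the farthest point at day 4 is Crnn, whose DMSO libraries held 0 to 0.0306 CPM, so that its fitted value is not a measured fold.

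Over time, keratins, S100 genes and other envelope proteins that changed were mostly lower at day 4. In 4OHT organoids 7 of 8 keratins, 9 of 11 S100 genes and 7 of 14 other envelope proteins were lower at day 4, and 1 envelope protein was higher. In DMSO organoids 4 of 7 keratins, 9 of 10 S100 genes and 5 of 11 envelope proteins were lower and 2 envelope proteins higher. Over all genes, 23.5% were lower and 25.9% higher in 4OHT organoids, and 24.8% were lower and 28.7% higher in DMSO organoids. Krt4 changed by -2.38 in 4OHT organoids (adjusted p = 0.000222) and -3.19 in DMSO organoids (adjusted p = 2.54e-05), and Ppl by -1.12 and -1.19 (adjusted p = 2.61e-06 and 1.18e-07).

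Markers of a squamous basal layer were low in every group. The sum of 5 markers (Trp63, Krt5, Krt14, Krt15 and Col17a1) was 4.54 to 5.49 CPM in 4OHT libraries and 3.05 to 3.99 CPM in DMSO libraries at day 2. At day 4 the order was the other way, with 1.21 to 1.71 CPM in 4OHT libraries and 2.15 to 2.69 CPM in DMSO libraries. Krt15 made up most of both day 4 sums and was the 1 marker tested then, where it fell. With no filter on low counts, Krt5 was higher in 4OHT organoids at day 4, by 2.27 on the log2 scale (edgeR, adjusted p = 0.0133). Under that setting Krt14 changed by 1.40 and Trp63 by -0.46 (edgeR, adjusted p = 0.272 and 0.684). Bnc1, the sixth on the list, had no row in either deposited table. At day 2 Krt5 had 1.88 ± 0.313 CPM in 4OHT organoids and 0.873 ± 0.140 CPM in DMSO organoids (log2 fold change 1.11, adjusted p = 0.000231), and Krt14 changed by 1.45 (adjusted p = 5.53e-05). Their part in the results was not tested.

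Markers of intestinal epithelium were high in all 4 groups. All 9 intestinal epithelium markers were present and summed to 8408 to 9712 CPM in 4OHT libraries and 8164 to 9129 CPM in DMSO libraries at day 2, and to 7595 to 8256 CPM in 4OHT libraries and 6311 to 6624 CPM in DMSO libraries at day 4. Vil1, for the brush border protein villin, had 914 ± 71.8 CPM in 4OHT organoids and 930 ± 26.99 CPM in DMSO organoids at day 2 (adjusted p = 0.882). Of the 9, 1 rose and 2 fell at day 2, and 3 rose and 0 fell at day 4 (edgeR, adjusted p below 0.05). Over all genes 16.9% rose and 14.3% fell at day 2, and 13.7% and 11.1% at day 4. Of the stromal markers, 4 of 9 had a row in the deposited tables. They summed to 8.11 to 8.99 CPM in 4OHT libraries and 8.16 to 9.48 CPM in DMSO libraries at day 2. At day 4 the sums were 8.78 to 11.4 CPM in 4OHT libraries and 8.64 to 10.9 CPM in DMSO libraries. Immune and endothelial markers, also 4 of 9, summed to 3.94 to 4.62 CPM in 4OHT libraries and 3.27 to 3.64 CPM in DMSO libraries at day 2, and to 3.60 to 6.16 CPM and 2.15 to 3.31 CPM in the same groups at day 4, and their part in the results was not tested.

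Within 100 kb of the 6 genes lie 34 other protein-coding genes. Of these, 14 were tested at day 2, with 3 higher and 2 lower, where 16.9% of all genes were higher and 14.3% lower, and 15 at day 4, with 5 higher, where 13.7% of all genes were. The largest fold among them was that of Prom2, named after its values were seen, which encodes prominin 2 and lies 91.8 kb from Mal. Prom2 had 2.26 CPM in 4OHT organoids and 0.152 CPM in DMSO organoids at day 2 (log2 fold change 3.88 ± 0.18, adjusted p = 4.79e-08), and 1.94 CPM and 0.0993 CPM in the same groups at day 4 (4.25 ± 0.47, adjusted p = 0.000234). None of the other small proline-rich or late cornified envelope genes within 100 kb of Sprr1a or Ivl passed the count filter at either day.

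Profiles over the 16 libraries were compared by the root mean square difference of centred log2 CPM, where 0 would be the same profile. The libraries share the treatments and days that set these profiles, so this is a description. Among the 6, Ivl and Mal were the closest pair at 0.40 and Sbsn and Mal the farthest at 1.57. The nearest genes to Sprr1a were Vgll3 at 0.35, Cwh43 at 0.36 and Amotl1 at 0.37, against a median of 1.66 over 10695 genes. Closest to Ivl after Mal came Mcpt2 at 0.43 and Anxa8 at 0.47. Among the genes searched, closest to Mal came Tff1 at 0.37, Anxa8 at 0.41 and Krt4 at 0.48. Ivl, at 0.40 from Mal, was too low in level to be in that search. Lor had Amotl1 at 0.41, Msln at 0.42 and Clu at 0.49, and Sbsn had Ahnak at 0.33, Tead4 at 0.34 and Grhl1 at 0.35. Trim29 stood nearest to Wnt4 at 0.34, Vsig1 at 0.47 and Fut2 at 0.54.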

How the data were processed

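Poly(A) RNA libraries of 16 organoid samples were made from 250 ng of total RNA with a directional kit, per the labels' protocols. The submitters' processing notes name STAR 2.4.0f1, bcl2fastq 1.8.4 and build GRCm38; how reads were counted, on which annotation and strand, is not given in the sources used here. The authors deposited 1 table per day, with 8 libraries of gene counts in whole numbers and a normalized value per library that is treated as a score and not used. Both tables leave out genes summing to under 10 counts.

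The members and lists were chosen with earlier results of these data known. Counts were tested with edgeR 4.0.16 (R 4.3.3, TMM, filterByExpr, robust quasi-likelihood test, Benjamini-Hochberg adjustment over all genes tested, threshold 0.05), on the 8 libraries of each comparison; the days were compared over genes of both tables. Steps were checked on simulated data. SE is the log2 fold change divided by the root of F. CPM were scaled by TMM over 16 libraries, and exon lengths are from GENCODE M21. Genes named from each list were up to 3 with the smallest p among those called and up to 2 with the highest level per length in each treatment comparison. Not all picks are named above. Left out among picks by level were Ctsd, Elovl1, Jund, Klf5, Krt10, Mal2, Plp2, Prss8, S100a11, Slc27a4 and St14. Slc27a4 at day 2 and Ctsd, Elovl1, Jund and Plp2 at day 4 were not called (edgeR, adjusted p = 0.256, 0.0583, 0.131, 0.223 and 0.0900). Ctsd and Mal2 rose at day 2 and Klf5 and Slc27a4 at day 4, calls that some other settings lost. Jun, Trp63, Krt5, Krt14, Vil1, Cd68 and Prom2 fall outside this rule and were named after their values were seen. Likeness used genes with a mean log2 CPM of at least 1 and a prior count of 2. Gene length was the union of exons.

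Over 9690 genes with mean log2 CPM above 3, deviations from the group mean of same-numbered 4OHT and DMSO libraries correlated at 0.63 to 0.81 at day 4, so the numbers pair these libraries, as seen in the data and not stated in the labels. No pair of libraries within a group matched within counting noise (smallest chi-square per degree of freedom 7.99 over 24 pairs). Reads carry no molecular identifiers. Alternatives were DESeq2 1.42.0, no filter, at least 1 CPM in 4 libraries, other scaling, a fit over all 16 libraries, the replicate block and leaving out each library.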

Additional observations from a re-analysis of the deposited data

How the results depend on the processing

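Of 384 values recomputed under settings other than leaving out a library, 364 kept their direction and stayed on their side of the threshold or within the allowed range, 20 moved and 0 turned direction. With the replicate block at day 4, the genes called numbered 7216, against 3967 without it, and listed pathway genes that fell numbered 9, against 4; the cause was not tested. Apart from the counts given beside the lists, the block moved no other recomputed count by over 1.5 times and changed no call of the 6 genes. At day 2 the same-numbered libraries correlated at -0.11 to 0.47, and between the days at -0.23 to 0.39 in 4OHT and 0.07 to 0.19 in DMSO organoids, so those numbers do not pair; the block gave 4916, 7967 and 8665 genes called, against 4950, 7880 and 8605.

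Leaving out each library in turn gave 512 values, of which 489 stayed as they were, 22 moved and 1 gained a call. Of the rises named above, the stricter 1 CPM minimum left those of Tgm1, Tgm5, Cmtm8 and Krt14 untested at day 2. At day 4 it left those of Tgm5, Cmtm8, Cers3, Zfp750 and Crnn untested. Listed pathway genes that fell at day 4 ranged from 2 to 4, and were 2 without DMSO day 4 replicate 1, 2 or 3. The log2 change of Trim29 between the days in 4OHT organoids ranged from -1.02 to -0.29, with adjusted p from 0.00135 to 0.447. Depth limits Ivl in DMSO organoids of day 4, at 4 to 14 counts a library, and the listed genes too low to test. Mal and Lor were also low there, at 16 to 36 and 17 to 50 counts a library.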
